A study of Nicotiana benthamiana with 12 samples.

Results

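The 200 genes whose transcript share varied least among 12 RNA libraries of Nicotiana benthamiana seedlings are described here as candidates for reference genes. They were taken from 45796 gene IDs of the deposited count tables. Counts were divided by each library's total and given per 1000000 counts (CPM), the 200 genes of highest mean CPM were left out, and genes with a mean of at least 20 CPM were kept. Of these 10198 genes, the 200 with the lowest coefficient of variation (CV, the SD divided by the mean over the 12 libraries) were taken as the steadiest genes. Because all 12 libraries entered the choice, levels, spreads and differences of these genes in the same libraries describe the choice and carry no test.

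The libraries were made from whole seedlings of the LAB strain, which were moved from plates to liquid medium 10 days after germination and kept there for 10 days. Fresh medium then held 0.1% DMSO (mock) or 10 µM abscisic acid (ABA), and seedlings were collected after 3 h. Wild type (WT) and pent1 seedlings each gave 3 mock and 3 ABA libraries, described in the design text as independent. What was changed in pent1 is not stated in the labels or files. The 2 genotypes had separate count tables, and effects of genotype and of a different handling of each table cannot be told apart. Library totals ran from 18199288 to 18758918 counts in WT and from 19371555 to 19678708 in pent1.

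Reference genes are transcripts taken as the fixed scale against which others are measured, as in quantitative PCR, where a target is read relative to a few genes assumed to stay level. Genes of basic cell functions, such as those for cytoskeleton proteins, translation factors and ubiquitin enzymes, are commonly tried for this in plants, and their steadiness has to be shown anew for each tissue and treatment. ABA is a hormone of drought and seed dormancy. It binds receptors that block a class of protein phosphatases, which frees kinases that act on transcription factors, so that many transcripts shift within hours of treatment. In a whole seedling, fewer cells of a type and less RNA per cell cannot be told apart, and a steady CPM is a steady share of the counted RNA, not a steady number of molecules per cell. The files give gene IDs without names, so the genes are called by ID, and neither classical reference genes nor markers of the seedling's tissues could be looked up. The species carries duplicated parental genomes, so that reads of similar gene copies may have been counted for either one.

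The 10 genes of lowest CV covered levels from 22.2 to 268 CPM on average. NbL01g13880 had the lowest CV, 2.81%, with 275, 266 and 264 CPM in WT mock, 281, 275 and 265 in WT ABA, 254, 270 and 262 in pent1 mock, and 269, 262 and 275 in pent1 ABA. Its highest library exceeded its lowest by a ratio of 1.11, and the ranges of all 4 groups overlapped. NbL11g00400, at a CV of 2.84%, had 66.5, 69.3 and 68.1 CPM in WT mock, 71.0, 66.2 and 68.3 in WT ABA, 64.9, 67.3 and 68.6 in pent1 mock, and 66.8, 67.0 and 64.0 in pent1 ABA. Its groups overlapped as well, and its group means ran only from 65.9 ± 1.70 CPM in pent1 ABA to 68.5 ± 2.42 CPM in WT ABA (SD, n = 3).

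**Figure D1:**
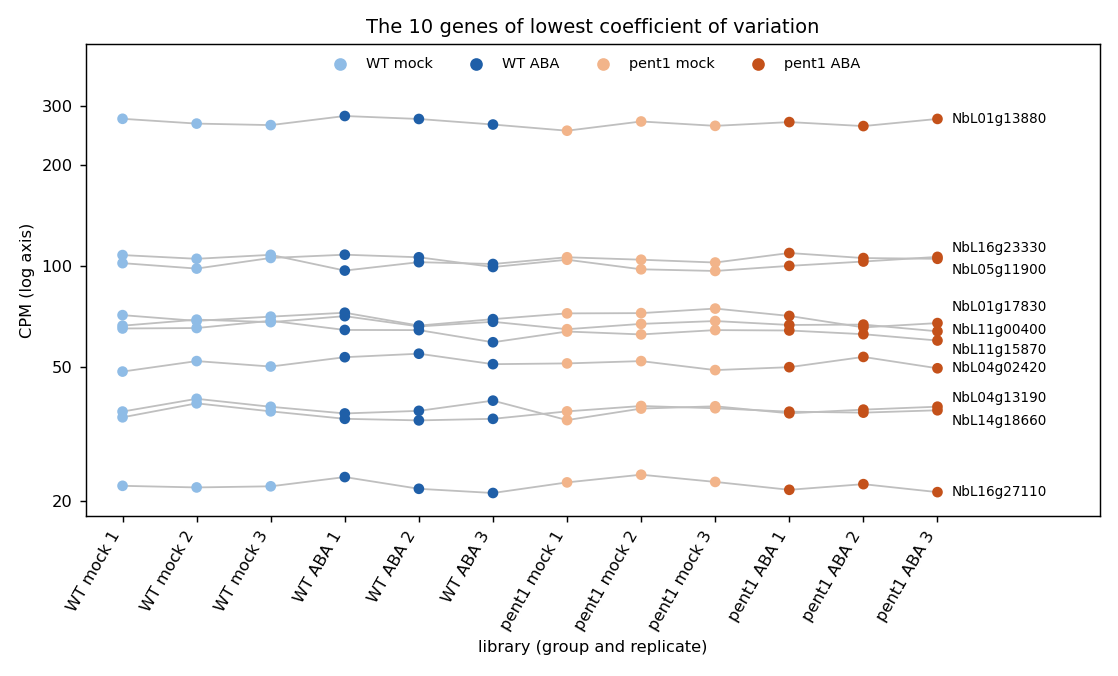
CPM of the 10 genes of lowest coefficient of variation in each of the 12 libraries, on a log axis, with 1 line per gene and points coloured by group. The lines run nearly level across genotypes and treatments, at mean levels between 22.2 CPM (NbL16g27110) and 268 CPM (NbL01g13880). In some genes the mock and ABA libraries within a genotype do not overlap.

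The next genes by CV were NbL05g11900, NbL14g18660, NbL16g23330, NbL04g02420, NbL16g27110, NbL01g17830, NbL11g15870 and NbL04g13190, with CVs from 3.24% to 3.95%. NbL05g11900 had 108, 105 and 108 CPM in WT mock, 97.1, 103 and 102 in WT ABA, 106, 105 and 103 in pent1 mock, and 110, 106 and 105 in pent1 ABA. Its WT ABA libraries lay below its WT mock libraries without overlap, while its pent1 groups overlapped. NbL16g27110, the least abundant of the 10, had 22.1, 21.9 and 22.1 CPM in WT mock, 23.5, 21.7 and 21.1 in WT ABA, 22.7, 23.9 and 22.7 in pent1 mock, and 21.5, 22.4 and 21.2 in pent1 ABA. NbL14g18660 had means of 37.1 ± 1.79 CPM for WT mock, 35.0 ± 0.216 for WT ABA, 37.6 ± 0.696 for pent1 mock and 36.9 ± 0.30 for pent1 ABA (SD, n = 3). Its WT ABA libraries, at 34.7 to 35.1 CPM, lay below all its other libraries, at 35.4 to 39.0 CPM. NbL11g15870 also had WT ABA libraries below its WT mock libraries without overlap. In NbL16g27110 and NbL01g17830 the pent1 ABA libraries lay below the pent1 mock libraries without overlap. Each of the 10 genes remained among the 200 whichever single library was left out.

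Over the 200 genes the CV ran from 2.81% to 6.04%, with a median of 5.47%, where all 10198 genes within the abundance limits had a median of 14.5%. Just inside the limit were NbL10g15490 and NbL19g17660, at 6.035% and 6.036%, and just outside it NbL05g08240 and NbL17g06860, both at 6.045%, so the edge of the list separates no distinct class. The next 200 genes by CV had a median of 6.45%. The 200 most abundant genes, which the rule leaves out, had a median CV of 13.3%, near that of the genes within the limits.

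Abundance was little related to spread among the genes within the limits, with a Spearman correlation of 0.000356 between mean CPM and CV across these 10198 genes, which share the 12 libraries. The steadiest genes had a median of 47.8 CPM (range 20.2 to 398), against 37.8 CPM for all genes within the limits. The most abundant was NbL05g06140, at 365 to 428 CPM, and the least abundant NbL05g11260, at 18.5 to 22.4 CPM. Of the 6617 genes with a mean of 20 to 50 CPM, 1.59% were among the steadiest, against 2.72% of the 2280 genes at 50 to 100 CPM, 2.12% of the 942 at 100 to 200 CPM and 3.62% of the 359 above that.

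**Figure D2:**
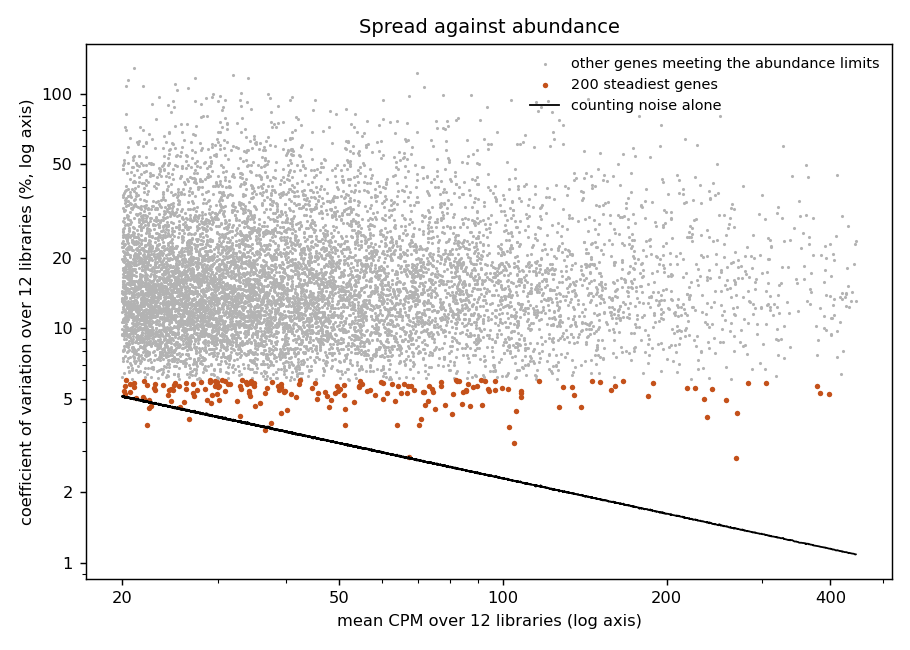
Coefficient of variation over 12 libraries against mean CPM for the 10198 genes within the abundance limits, both on log axes, with the 200 steadiest genes in colour and a line for counting noise alone. The steadiest genes fill the lower edge at all levels, and the line nears them at 20 CPM and lies well below them at 200 CPM and above.

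Counting noise alone, taken as the inverse square root of a gene's mean count, gives a CV of 5.15% at the abundance minimum and of 1.09% at the upper limit. For the steadiest genes this part of the CV had a median of 3.32%. A chi-square of the counts against the library totals, divided by its 11 degrees of freedom, had a median of 2.37 over the 200 genes and of 17.7 over all genes within the limits. It was below 1 in 5 genes, all among the steadiest, which were NbL16g27110 (0.635), NbL17g04130 (0.858), NbL18g10190 (0.901), NbL14g18660 (0.932) and NbL05g01080 (0.939). The same 12 libraries gave the chi-square and the CV, so low values among the steadiest genes are favoured by the choice and describe it. For NbL01g13880, whose mean count of 5090 makes counting noise small, the value was 4.02, so libraries differed beyond counting noise even in the gene of lowest CV.

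Within groups, the median CV of the steadiest genes was 3.52% for WT mock, 3.57% for WT ABA, 4.40% for pent1 mock and 5.02% for pent1 ABA. All genes within the limits showed the same order, with medians of 5.10%, 5.71%, 8.86% and 10.4%. When the squared deviations of each gene over the 12 libraries were divided among the factors of the design, the spread between replicates held a median of 64.3% in the steadiest genes and 28.4% in all genes within the limits. Genotype held a median of 9.09% against 26.9%, ABA 6.17% against 13.0%, and the difference of the ABA responses 6.73% against 6.26%. Low overall spread thus went with smaller parts for genotype and for ABA than in all genes within the limits, as the rule favours. The part of the difference of the ABA responses was not smaller.

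The group means of the steadiest genes lay close together. The ratio of the highest to the lowest of the 4 group means had a median of 1.08 and reached 1.15, and in 145 of the 200 it was below 1.1, a ratio that 4.89% of all genes within the limits stayed under. The log2 ratio of group mean CPM between ABA and mock ran from -0.16 to 0.17 in WT and from -0.16 to 0.18 in pent1. Between pent1 and WT it ran from -0.21 to 0.16 under mock and from -0.18 to 0.18 under ABA. Between 5% and 95% of the way through all genes within the limits, the same log2 ratios ran from -0.46 to 0.85, -0.49 to 0.58, -0.59 to 0.88 and -0.64 to 0.60, in the same order.

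**Figure D3:**
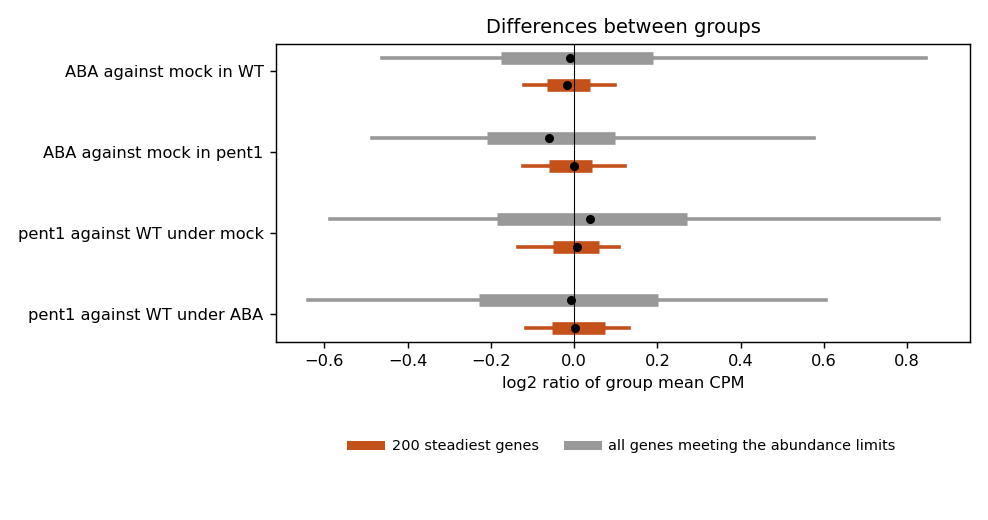
Log2 ratios of group mean CPM in 4 comparisons for the 200 steadiest genes and for all 10198 genes within the abundance limits. Dots are medians, thick bars span the quartiles and thin bars the range from 5% to 95% of genes. The thin bars of the steadiest genes reach from -0.13 to 0.13 at most, while those of all genes reach from -0.64 to 0.88.

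In a fit across all genes (edgeR quasi-likelihood with TMM scaling and Benjamini-Hochberg adjustment, threshold 0.05), 1 of the 200 genes was called between ABA and mock in WT, where 36% of 33170 tested genes were called, and it was higher with ABA, as were 18.6% of genes. In pent1 the ABA comparison called 0 of the 200, beside 11.1% of 33197 genes, and the test of the difference of the ABA responses called 0, beside 3.37% of 34026. Between pent1 and WT, 3 were called under mock, beside 32.8%, all of them lower in pent1, beside 15.4%, and 0 were called under ABA, beside 31.3%. Where edgeR called none of the 200, an unadjusted p under 0.05 was found for 3 genes in the pent1 ABA comparison, 10 in the difference of responses and 6 between genotypes under ABA. A gene called after adjustment also lies under that unadjusted limit, so at least the shares of all tested genes given above did so too. DESeq2 called 0, 0 and 1 in these comparisons, beside 3607 of 33197, 1927 of 34026 and 9732 of 34026 tested genes. The choice used each of these contrasts, so the counts describe the list and nothing is read from them.

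The gene called in WT was NbL14g09090, at 29.8, 31.6 and 32.4 CPM in WT mock and 34.2, 36.8 and 34.5 in WT ABA. Its pent1 libraries, from 33.2 to 36.3 CPM, lay above all WT mock libraries and overlapped WT ABA under both treatments. The fitted log2 fold change was 0.18 with a 95% interval of 0.04 to 0.32. This call was lost with DESeq2, with library-size scaling, with scaling to the 200 genes, and whichever of the 6 WT libraries was left out. The genes were chosen on plain totals. Fewer calls with library-size scaling or scaling to the 200 genes are thus favoured by the choice. Without WT ABA replicate 3 the fit called 1 other gene of the 200, which was lower with ABA.

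The 2 largest decreases called in pent1 under mock were in NbL01g10880 and NbL15g01620. NbL01g10880 had 96.8, 96.0 and 98.3 CPM in WT mock, 94.4, 95.8 and 95.9 in WT ABA, 83.6, 84.0 and 84.8 in pent1 mock, and 89.0, 90.5 and 86.9 in pent1 ABA. All 6 pent1 libraries lay below all 6 WT libraries, and genotype held 85.6% of its squared deviations although its overall CV was 6.01%. NbL15g01620 had 70.2, 67.4 and 71.4 CPM in WT mock and 60.7, 60.9 and 60.7 in pent1 mock, while its ABA libraries overlapped between genotypes at 62.7 to 69.2 and 66.4 to 68.7 CPM. The fitted log2 fold changes under mock were -0.25 (95% interval -0.42 to -0.08) and -0.24 (95% interval -0.41 to -0.07). The 3 calls under mock fell to 0 with library-size scaling and without WT mock replicate 1, WT mock replicate 3 or pent1 mock replicate 1, and rose to 6 with DESeq2 and to 7 without pent1 mock replicate 2. As the genes were chosen on plain totals, fewer calls with library-size scaling are favoured by the choice. Over all tested genes, calls were 11159 of 34026 in the main fit, 10768 with library-size scaling and 10315 with DESeq2. They were 9157, 8919 and 9753 without the libraries that gave 0, in that order, and 9789 of 34353 without pent1 mock replicate 2.

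The width of the fitted intervals limits how flat these genes can be said to be. The 95% interval of the log2 fold change stayed between -0.3 and 0.3 for 196 of the 200 genes between ABA and mock in WT, but for 69 in pent1. It did so for 167 between genotypes under mock, for 158 under ABA and for 53 in the difference of the ABA responses. In pent1 the median log2 fold change of the 200 genes was 0.08 with TMM and 0.00 with library-size scaling, beside -0.01 and -0.10 for all tested genes, so the distance from 0 depended on the scaling. For NbL11g00400 the intervals were -0.11 to 0.15 for ABA in WT and -0.18 to 0.30 for ABA in pent1. The median standard error of the log2 fold change was 0.07 for ABA in WT and 0.11 in pent1. These intervals are of genes chosen to be flat and carry no allowance for that choice. The same counts were not made over all tested genes, so they describe the list only.

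How well a choice by the same rule carries over was measured in libraries that it did not use. For the 200 genes above no such library exists. Other lists were therefore chosen on 6 libraries, and these shared 31 to 49 genes with the 200. When 200 genes were chosen by the same rule on the 6 WT libraries, their median CV was 2.52% there and 9.49% in the 6 pent1 libraries, where all genes within the limits had 12.3%. When they were chosen on pent1, the median was 3.74% there and 6.69% in WT, against 9.50% for all. Genes chosen on the mock libraries had a median of 3.24% there and 8.86% in the ABA libraries (12.5% for all), and those chosen on the ABA libraries 3.58% there and 8.84% in mock (12.2% for all). Genes steady in 6 libraries thus again had a lower CV than the median gene in the other 6, but by a far smaller margin. Of each 200, 8 to 10 were also among the 200 steadiest of the held-out libraries. Those 200 are themselves a small share of the 10001 to 10271 genes within the limits. The medians of the chosen genes lay at the 24.8 to 28.6 percentile of all genes within the limits. A CV within the held-out libraries does not show a shift in level from the choosing libraries. The median absolute log2 shift of the mean was 0.15 from WT to pent1 and 0.17 from pent1 to WT, against 0.19 and 0.20 for all. It was 0.09 from mock to ABA and 0.11 from ABA to mock, against 0.13 and 0.13 for all.

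**Figure D4:**
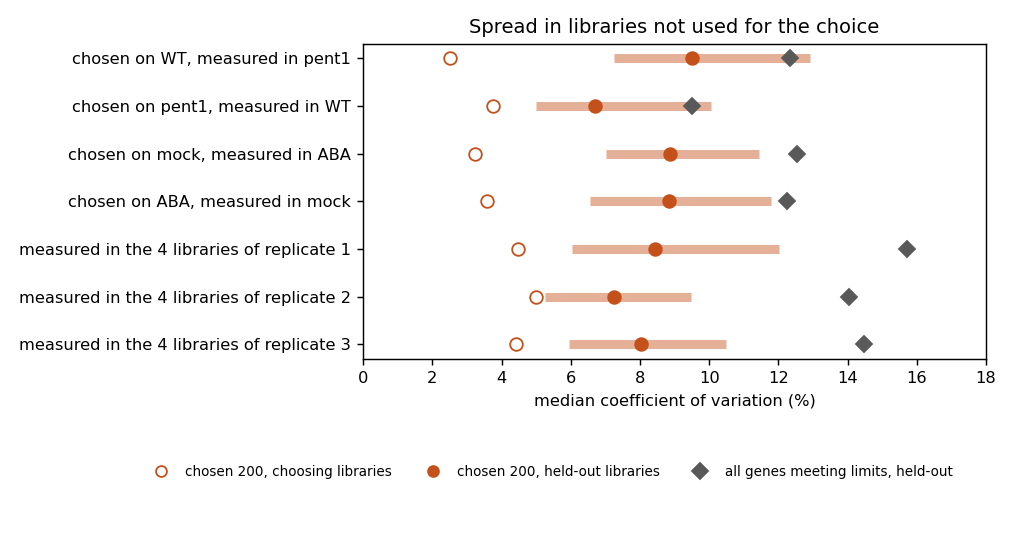
Median coefficient of variation of 200 genes chosen on part of the libraries, in the choosing libraries (open circles) and in the held-out libraries (filled circles, with a bar from the lower to the upper quartile), and of all genes within the limits in the held-out libraries (diamonds). The filled circles lie to the right of the open circles and to the left of the diamonds in all 7 choices.

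With 2 replicates of each group used to choose and the 4 libraries of the remaining replicate number held out, the chosen genes had a median CV of 8.42%, 7.25% and 8.02% in the libraries of replicates 1, 2 and 3, against 15.7%, 14.0% and 14.5% for all genes within the limits. With 11 libraries used to choose, the chosen genes differed in the library left out from their mean in the other 11 by a median absolute log2 value of 0.06 to 0.08 in the 6 WT libraries and of 0.07 to 0.14 in the 6 pent1 libraries. All genes within the limits differed by 0.14 to 0.21. This last measure was added after the data were seen. The library with the largest deviation was pent1 ABA replicate 1, where 56 of the 200 chosen genes differed by more than 0.2. All genes within the limits also deviated most in this library, with a median of 0.214, itself above 0.2.

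The list itself depended on which libraries were used. Of the 200 genes, 104 were in all 12 lists made without 1 library. Leaving out a WT library kept 165 to 176 of the 200, and leaving out a pent1 library kept 138 to 167, with the fewest without pent1 ABA replicate 1. Lists chosen on 6 libraries shared 31 (WT), 40 (pent1), 49 (mock) and 47 (ABA) genes with the 200. NbL01g13880 and NbL11g00400 were in all 4 of these lists, 6 genes were in 3, and 83 of the 200 were in none.

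**Figure D5:**
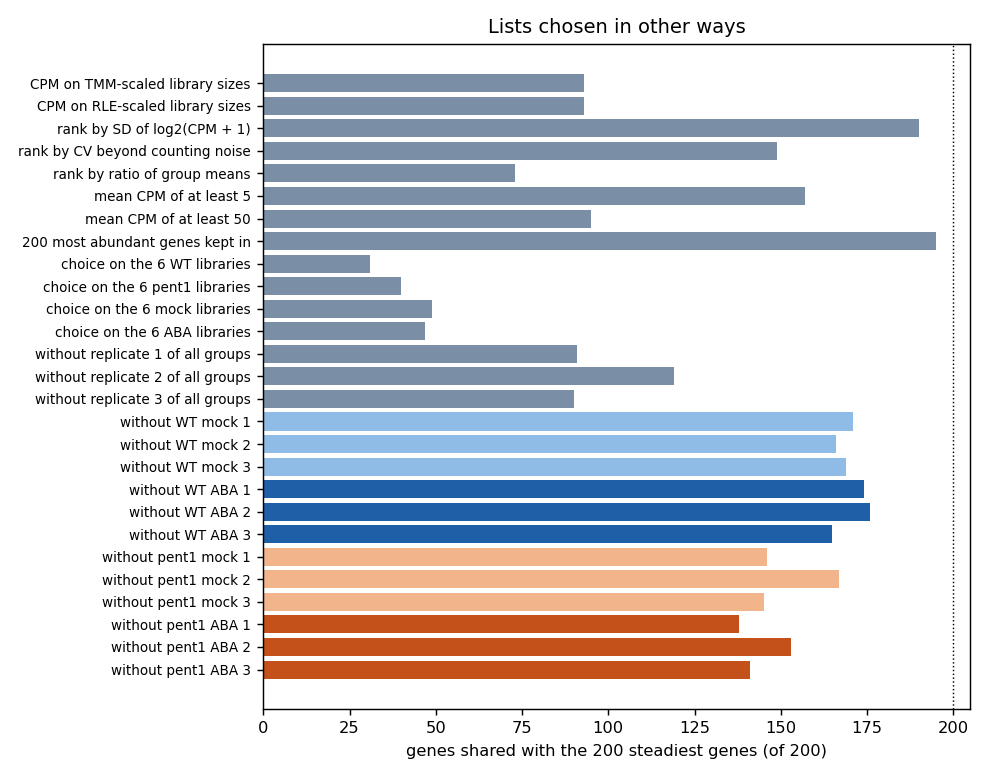
Number of the 200 steadiest genes found again in lists of 200 chosen in other ways. Grey bars change the scaling, the ranking, the limits or the set of libraries, and coloured bars leave out 1 library of the group with that colour. The bars run from 31 (WT libraries only) to 195 (most abundant genes kept in).

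The list also depended on the scaling. TMM factors ran from 0.960 in pent1 ABA replicate 3 to 1.095 in pent1 mock replicate 1, and were 0.966 to 1.01 in WT. With CPM on TMM-scaled library sizes, 93 of the 200 genes were chosen again. The CV of the 200 genes on this scale had a median of 5.94%, and was lower than on plain totals in 55 genes and higher in 145. All genes within the limits had a median of 14.3% on this scale and of 14.5% on plain totals. RLE factors also kept 93, and 87 were in both of these lists. Among the first 10, NbL04g13190 left the list under both factors (CV 6.49% and 6.59%), while NbL01g13880 stayed at 5.15% and 5.31%. On plain totals the mean log2 CPM of all 200 genes had an SD of 0.02 over the 12 libraries, and on TMM-scaled totals 0.04. The 200 genes were chosen on plain totals, so their lower spread on that scale is favoured by the choice and describes it. A set of 61 genes was in all 12 lists made without 1 library and in the TMM and RLE lists, a combination looked at after the data were seen. Its genes had mean levels from 20.2 to 270 CPM, CVs up to 5.46% on plain totals and up to 5.75% under TMM, and included 9 of the first 10 genes.

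Ratios of counts between genes of 1 library need no scaling at all. Over the 19900 pairs among the 200 genes, the SD over the 12 libraries of the log2 count ratio had a median of 0.11 and ran from 0.03 to 0.17, whereas pairs among the 200 most abundant genes had a median of 0.27. The same 12 libraries gave the choice and the ratios, so low SDs among the 200 genes are favoured by the choice and describe it. The steadiest ratio was that of NbL10g24160 to NbL15g00690, with counts of the first 1.44 to 1.54 times those of the second in every library and an SD of 0.031. The next was NbL13g11410 to NbL04g06300, whose counts were nearly equal, at ratios from 0.973 to 1.05 and an SD of 0.031. The third was NbL11g00130 to NbL05g04920, at 0.831 to 0.891 and an SD of 0.035. Each of these SDs was below the 0.046, 0.063 and 0.059 that counting noise alone gives for such counts, and they are the lowest of 19900.

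The genes of the second pair were not among the flattest, at ranks 127 and 132 of the 200 by CV. NbL13g11410 had 58.2, 55.0 and 55.3 CPM in WT mock, 51.5, 51.7 and 50.5 in WT ABA, 54.6, 53.5 and 52.4 in pent1 mock, and 60.8, 57.6 and 53.2 in pent1 ABA. NbL04g06300 had 58.0, 55.1 and 54.2 in WT mock, 51.7, 52.5 and 49.1 in WT ABA, 55.6, 54.1 and 53.8 in pent1 mock, and 59.5, 57.9 and 50.9 in pent1 ABA. Both were lower in all WT ABA libraries than in all WT mock libraries, so the ratio stayed level while both levels moved together by a few CPM. NbL10g24160 was the steadiest of the 200 once libraries were scaled by TMM or RLE, with CVs of 2.93% and 2.62% against 4.61% on plain totals. Averaged over its ratios to the other genes, the lowest SD was that of NbL11g00400, at 0.09, and the average and the CV had a Spearman correlation of 0.765 across the 200 genes, which share the same libraries.

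By ID, the steadiest genes were spread widely. IDs begin with NbL and a number from 00 to 19, whose meaning the sources used here do not give. Each of the numbers 01 to 19 held 5 to 19 of the 200 genes, from 1.05% (NbL02) to 3.45% (NbL05) of its genes within the limits, and NbL00, with 29 such genes, held 0. Only 1 pair of neighbouring IDs, NbL11g23700 and NbL11g23710, was among the 200.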

How the data were processed

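The deposited values were raw counts of reads for each gene, in 2 tables, 1 per genotype, which were joined by gene ID. Per the labels' protocols, libraries came from a strand-specific mRNA kit. Cutadapt, FastQC, DESeq2 and STAR are named, without versions, per the submitters' processing notes. The sources used here do not say how reads were assigned to genes, or which build and annotation were used. Columns were matched to samples by the descriptions in the labels.

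CPM, CVs, counting noise, held-out spread and pair ratios were computed in Python 3.11.15. Differences were fitted with edgeR 4.0.16 in R 4.3.3 (quasi-likelihood, robust dispersion, TMM, filterByExpr with a count minimum of 10, Benjamini-Hochberg adjustment, threshold 0.05), ABA on the 6 libraries of each genotype and the other contrasts on all 12. All 200 genes passed the filter. The choice and the fits were also run on simulated data as a check of the code. This check does not bear on how steady the 200 genes are. Alternatives were RLE factors, library size only, scaling to the chosen genes, no filter, DESeq2 1.42.0, a replicate block, a 2-fold minimum, other rankings and limits, and each library left out.

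The genes, lists and tests were chosen with earlier results of these data known. Genes named are the 10 of lowest CV, those at the limit, the highest and lowest in level, the 3 steadiest pairs and at most 2 called per direction in a comparison. NbL17g04130, NbL18g10190, NbL05g01080 and the neighbouring pair were named after their values were seen. Lists of classical reference genes and tissue markers were not used, since the IDs carry no names.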

Additional observations from a re-analysis of the deposited data

How the results depend on the processing

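Against the 200 genes, lists of 200 shared 93 genes under TMM, 93 under RLE, 73 when ranked by the ratio of group means, 95 with a minimum of 50 CPM, 31, 40, 49 and 47 when chosen on the WT, pent1, mock or ABA libraries, and 91, 119 and 90 without replicate number 1, 2 and 3 of all groups. Leaving out 1 library shared 138 to 176. The other rankings and limits tried shared 149 to 195.

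The 1 call for ABA in WT was 0 with a 2-fold minimum, library size only, scaling to the chosen genes and DESeq2. Over all 33170 tested genes, calls were 11953 in the main fit and 2387, 11904, 11905 and 9193 in these, in that order. Without 1 library the count was 0 to 1, and the 1, without WT ABA replicate 3, was another gene, lower with ABA. For ABA in pent1 every alternative gave 0. The difference of responses gave 0 to 1, with 1 only without pent1 ABA replicate 3. There 5333 of 34369 tested genes were called, against 1145 of 34026 in the main fit. The 3 calls between genotypes under mock were 0 with a 2-fold minimum or library size only, 1 with scaling to the chosen genes, 6 with DESeq2 and 0 to 7 without 1 library. Under ABA the count was 1 with DESeq2 and 0 to 3 without 1 library, with 3 without pent1 ABA replicate 3. Over all tested genes, calls under ABA were 10652 of 34026 in the main fit, 9732 with DESeq2 and 11784 of 34369 without pent1 ABA replicate 3. The cause of these changes was not tested. As the 200 genes were chosen on plain totals, fewer calls with library size only or scaling to the chosen genes are favoured by the choice. Their largest absolute fitted log2 fold change was 0.18 for ABA in WT and 0.25 between genotypes under mock. A 2-fold minimum could therefore call none of them.

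With the replicate block, 1, 0, 0, 2 and 0 genes were called for ABA in WT, ABA in pent1, the difference of responses, and pent1 against WT under mock and under ABA. Over all tested genes the counts were 12023, 4096, 1491, 11034 and 10542, in that order. Same-numbered mock and ABA libraries had correlations of their deviations of 0.079, -0.099 and 0.207 in WT and -0.033, -0.121 and 0.212 in pent1, so the numbers were not taken to pair the samples.

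The held-out median CV from WT to pent1 was 8.81% under TMM and 10.2% when ranked by CV beyond counting noise. It was 9.37% in replicate 1 with that ranking and 6.89% in replicate 3 under TMM. The mean pair SD of a gene, with a median of 0.107 over the 200 genes, had medians of 0.103 to 0.109 without 1 library. At the abundance minimum of 20 CPM, counting noise alone gives a CV of 5.15%.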
